A study of Mus musculus with 22 samples.

Results

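The genes described here encode the oxidoreductases of mouse kidney that act on aldehydes, alcohols, ketones and hydroxysteroids, together with the flavin monooxygenases. Members were chosen by symbol, as the aldehyde dehydrogenase (Aldh), aldo-keto reductase (Akr), alcohol dehydrogenase (Adh), hydroxysteroid dehydrogenase (Hsd), flavin monooxygenase (Fmo) and DHRS short-chain dehydrogenase families without Akr1b3 and Hsd17b7, with at least 10 counts in at least 5 libraries. Such a symbol was carried by 78 of the 32858 genes counted, of which 65 met the count rule and 13 did not. All 65 entered the tests, and 57 held at least 10 counts in all 22 libraries.

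Aldehyde dehydrogenases oxidise reactive aldehydes to acids, and some of them make retinoic acid from retinaldehyde or break down the carbon skeletons of amino acids. Aldo-keto reductases and short-chain dehydrogenases reduce or oxidise carbonyl groups with nicotinamide cofactors, and several of them switch steroid hormones between active and inactive forms. Proximal tubule cells of the kidney are rich in many of these enzymes, which handle filtered and circulating aldehydes, drugs and steroids.

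RNA from whole kidneys of male C57Bl6/J mice aged 8 to 10 weeks was sequenced in 22 libraries. The study asked whether KW6002 (istradefylline), an adenosine receptor antagonist, changes the kidney response to the antitumour drug cisplatin. Vehicle mice (n = 5) received carrier only; cisplatin was dissolved in saline, and KW6002 in a mixture of DMSO, cremophor and saline. Cisplatin mice (n = 5) received cisplatin at 3 mg/kg into the peritoneum in 6 daily injections and were killed 72 h after the last. KW6002 mice (n = 6) received 3 mg/kg of KW6002 daily from day -5 to day 7, and co-treated mice (n = 6) received both drugs on the same schedules. Mouse labels fell into a lower and a higher number series, and the lower one held 3 vehicle and 3 KW6002 mice and no mouse given cisplatin. Total counts ran from 26471762 to 40510754 per library, with a median of 32721214.5. By group the totals were 26471762 to 33168134 for vehicle, 27461723 to 40510754 for KW6002, 32807796 to 37562014 for cisplatin and 28142763 to 34726619 for co-treated mice.

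Levels are given as CPM (counts scaled to library size with TMM factors), and levels of different genes are compared only as CPM per kilobase of exon. Where a marker is said to hold the most counts of its list, gene length is not taken into account. Values of 5 mice are listed in the order of replicates 1 to 5. A gene is called higher or lower where the adjusted p is under 0.01 and the log2 fold change lies beyond 1 in either direction. "Rose" and "fell" are used of a gene with an adjusted p under 0.05. Adjusted p-values come from the edgeR quasi-likelihood test over 17131 genes, and each fold change is followed by its standard error (SE).

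Markers of the kidney were present in the vehicle libraries. The 10 proximal tubule markers summed to between 34858 and 39559.7 CPM there, Kap (an androgen-driven proximal tubule gene) held the most counts at a mean of 19926 CPM, and none was at 0. Thick ascending limb markers summed to 6456 to 10277 CPM, with the most counts in Umod, and podocyte markers to 475 to 584.5 CPM. Of the 6 adrenal markers 4 were at 3 counts or fewer in every vehicle library. Fat markers, with the most counts in Fabp4, varied between mice, from 153.8 to 1381.1 CPM in vehicle, 65.2 to 595 CPM in KW6002, 413 to 824 CPM in cisplatin and 40.8 to 374 CPM in co-treated mice, and vehicle replicate 2 held the most.

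In vehicle kidneys the members together made up 14414 ± 171 CPM (SD, n = 5). Per kilobase, Akr1c21, a hydroxysteroid dehydrogenase abundant in mouse kidney, had the highest level at 1022 ± 41.2 CPM per kilobase (SD, n = 5). Akr1a1, the aldehyde reductase that serves ascorbate synthesis in mice, followed at 799.6 ± 44.6 CPM per kilobase. Aldh6a1, which acts in the breakdown of valine and thymine, stood next at 237 ± 6.36. Then came Aldh2, the mitochondrial enzyme that oxidises acetaldehyde, at 203 ± 15.5, Aldh9a1, of carnitine synthesis, at 191 ± 14.8, Adh1, which oxidises ethanol and retinol, at 188 ± 10.4 and Dhrs4, a peroxisomal carbonyl reductase, at 177 ± 6.82 CPM per kilobase. Aldh1l1, the cytosolic formyltetrahydrofolate dehydrogenase, was at 162 ± 8.25, Akr7a5, an aldehyde reductase, at 152 ± 5.36 and the monooxygenase Fmo1 at 141 ± 10.8 CPM per kilobase. The order below Aldh6a1 depends on the length used: with the longest transcript in place of all exons, Fmo1 came next after Aldh6a1 at 286.6 CPM per kilobase, above Adh1 at 281.6 and Aldh2 at 269.2. Akr1c21, Akr1a1 and Aldh6a1 led with either length.

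**Figure D1:**
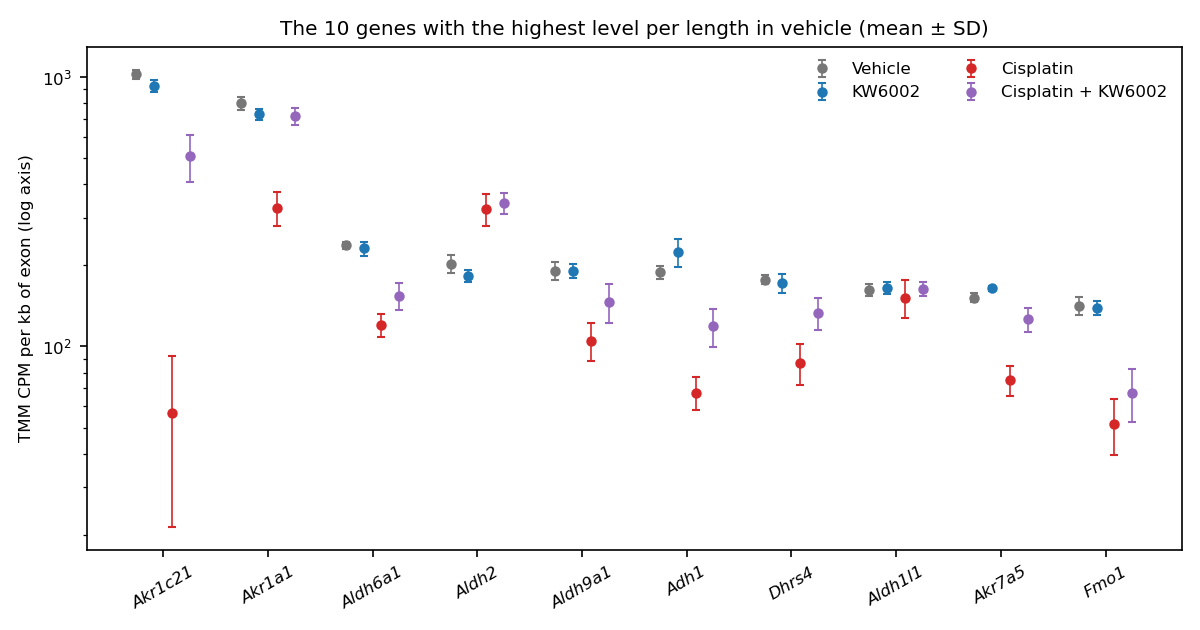
Mean level (TMM CPM per kilobase of exon, log axis) of the 10 genes highest in vehicle kidney, with bars for the SD over 5 or 6 mice, in the 4 treatment groups. Akr1c21 drops from 1022 in vehicle to 56.6 in cisplatin kidneys and is at 508 in co-treated kidneys, while Aldh2 is higher in both groups given cisplatin.

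Many of the enzymes that lead this order fell with cisplatin, while the members called higher were scarcer in vehicle kidney. Akr1c21 and Hsd3b2, both steroid enzymes, fell to a small fraction of their vehicle level in all 5 cisplatin mice, with log2 fold changes of -4.17 (SE 0.33) and -4.47 (SE 0.229). Aldh1a1, which makes retinoic acid, and the aldose reductase-like Akr1b8 rose in all 5, with log2 fold changes of 4.26 (SE 0.179) and 3.82 (SE 0.169). Of the 65 members 8 (12.3%) were called higher and 21 (32.3%) were called lower, against 12.1% and 12.1% of all tested genes. The share called higher was close to that over all genes and the share called lower was above it. With library size only, 9 were called higher and 16 lower against 2723 and 1629 of all tested genes: the calls of Akr7a5 (-0.80), Aldh16a1 (-0.96), Aldh1l2 (-0.85), Dhrs4 (-0.81) and Hsd17b11 (-0.90) ended, and Hsd3b7 (1.08) was newly called. At an adjusted p under 0.05, 16 members rose and 37 fell, against 34.6% and 35.9% of all tested genes. The median log2 fold change was -0.55 over the members and -0.01 over all tested genes. Among mice of the higher label series alone, 27 members were called, 7 higher and 20 lower: the calls of Akr1b7, Aldh1a3, Aldh1l2, Aldh3a1 and Dhrs4 ended there, and Adh6b, Hsd17b14 and Hsd3b7 were newly called. Without the 4 libraries highest in fat markers, left out after seeing the data, 24 were called, 7 higher and 17 lower, where the calls of Akr1b7, Akr1c20, Akr7a5, Aldh1a3, Aldh1l2, Aldh3a1 and Dhrs4 ended and Hsd17b14 and Hsd3b7 were newly called.

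**Figure D2:**
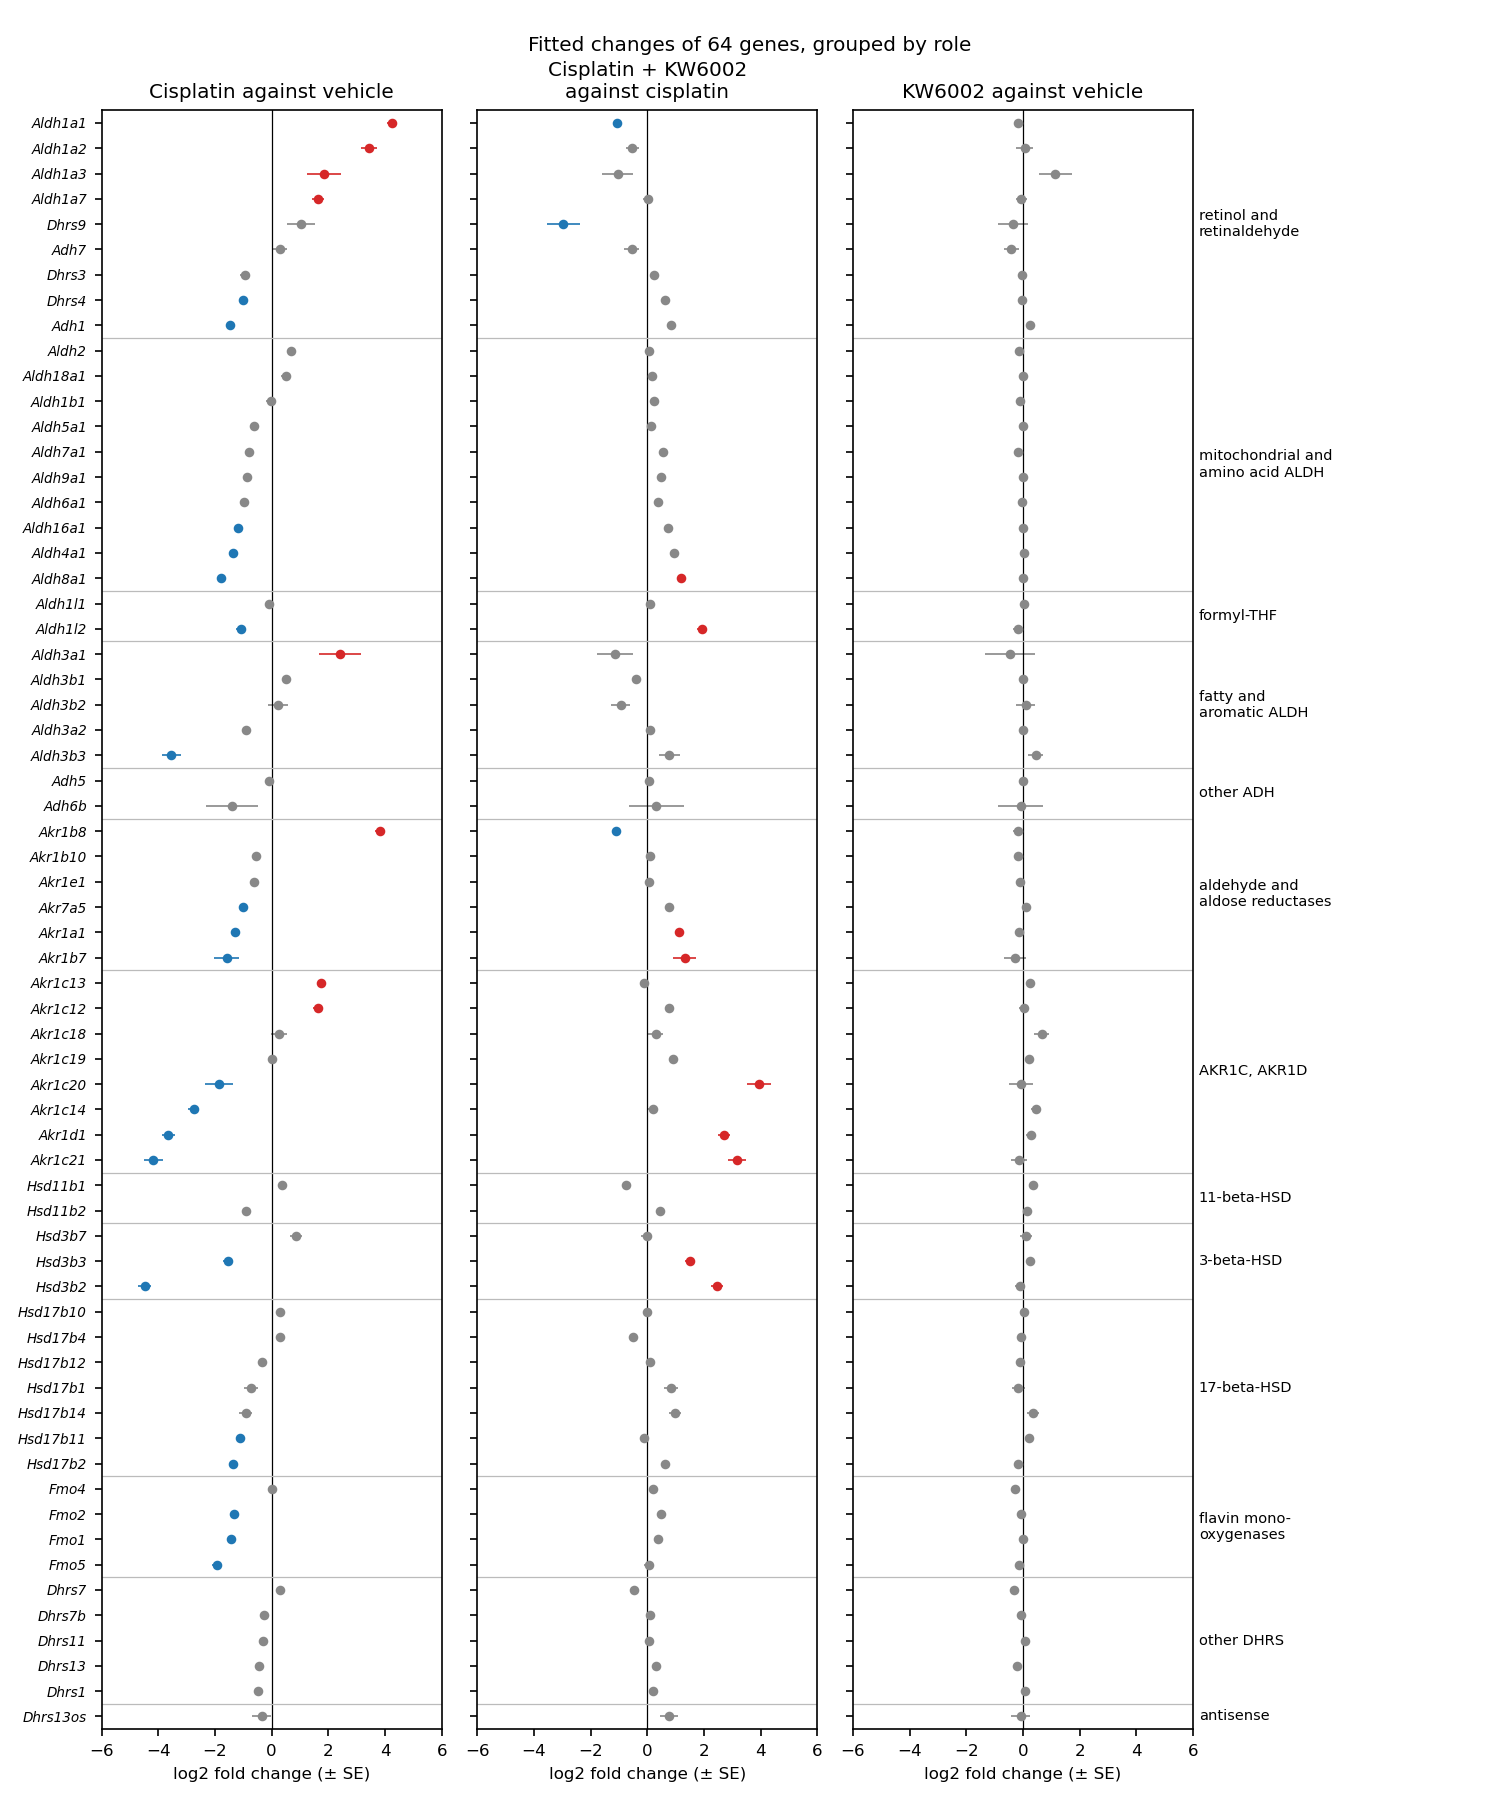
Fitted log2 fold change with its SE for 64 of the 65 genes, grouped by role, in 3 panels (cisplatin minus vehicle, co-treated minus cisplatin, KW6002 alone minus vehicle); red and blue points are called higher and lower. The first panel has 8 red and 21 blue points, the second 9 and 3 and the third 0.

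The summed level of the members was 8442 ± 937 CPM (SD, n = 5) in cisplatin kidneys, from 7157 to 9655 CPM. All 5 cisplatin sums lay below every vehicle sum. Markers of the proximal tubule moved with this: their sum was 2499.6 to 4052.5 CPM in the cisplatin mice, 9 of the 10 were called lower, and Slc13a3 held the most counts at 655 CPM, close to Kap at 582 CPM. Markers of tubular injury, of which 5 of 6 were called higher, summed to 1528 to 2686 CPM in cisplatin mice and to 80.85 to 92.0 CPM in vehicle mice, with the most counts in Lcn2, at 1240 ± 398 CPM in cisplatin mice. In bulk kidney, fewer cells of a type and less RNA per cell cannot be told apart, and the part of these shifts in the members' changes was not tested.

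**Figure D3:**
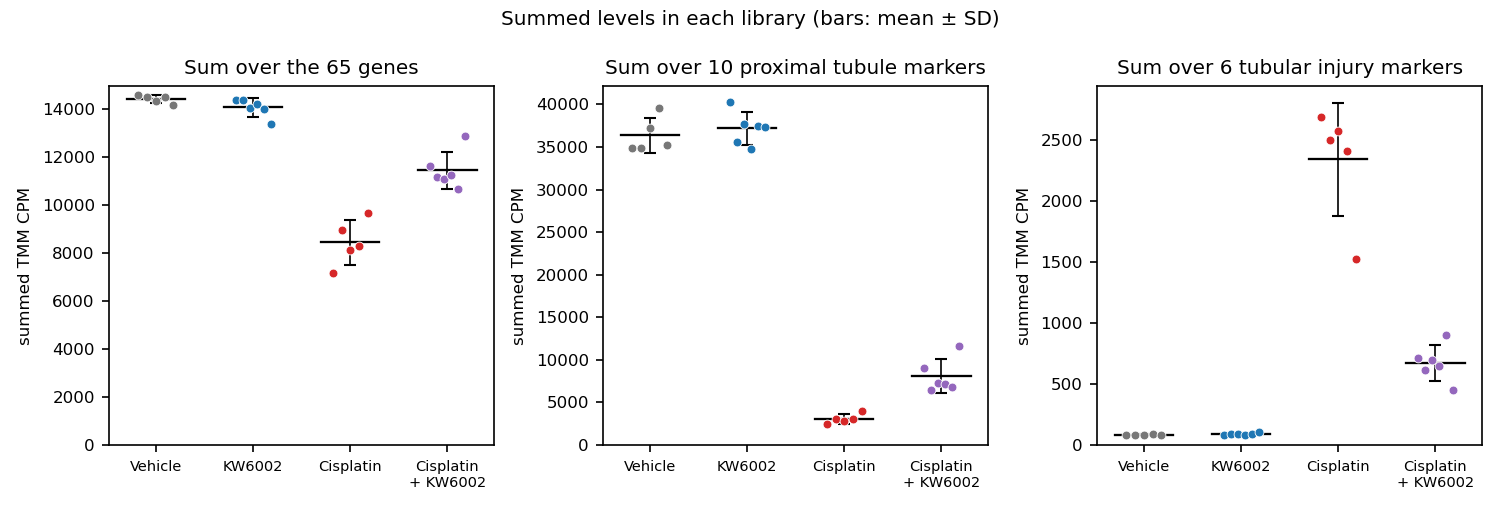
Summed TMM CPM of the 65 genes, of 10 proximal tubule markers and of 6 tubular injury markers; each point is a library, the lines show the group mean and the bars the SD. Cisplatin libraries sit between 7157 and 9655 CPM for the 65 genes, below every vehicle library.

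The promoter windows of the members with the largest changes are printed because those members moved together in 2 opposite groups, and they were chosen after their values were seen. Sequences are from RefSeq, build GRCm38.p6, 250 bases before to 50 bases after a transcript start, written 5' to 3' on the strand of the gene, in lower case with motif matches in capitals. Windows were found for 50 of the 65 members (57 windows). The first 3 windows belong to members that rose with cisplatin. Aldh1a1 (ENSMUSG00000053279) has a window at chr19:20492333-20492632 on the plus strand and another at chr19:20601718-20602017 on the plus strand. The Akr1b8 (ENSMUSG00000029762) window is at chr6:34353896-34354195 on the plus strand.
Aldh1a1 window 1: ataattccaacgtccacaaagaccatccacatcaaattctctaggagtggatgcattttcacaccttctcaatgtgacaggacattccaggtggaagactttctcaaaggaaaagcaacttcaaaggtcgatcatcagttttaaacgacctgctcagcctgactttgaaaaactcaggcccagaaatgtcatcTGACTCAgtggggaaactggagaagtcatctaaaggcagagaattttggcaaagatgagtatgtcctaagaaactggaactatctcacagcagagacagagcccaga
Aldh1a1 window 2: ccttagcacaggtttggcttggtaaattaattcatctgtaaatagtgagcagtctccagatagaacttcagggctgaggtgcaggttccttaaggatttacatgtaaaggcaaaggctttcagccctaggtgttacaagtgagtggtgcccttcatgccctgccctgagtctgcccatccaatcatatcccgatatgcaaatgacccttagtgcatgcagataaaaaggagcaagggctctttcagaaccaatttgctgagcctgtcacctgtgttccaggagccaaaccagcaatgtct
Akr1b8: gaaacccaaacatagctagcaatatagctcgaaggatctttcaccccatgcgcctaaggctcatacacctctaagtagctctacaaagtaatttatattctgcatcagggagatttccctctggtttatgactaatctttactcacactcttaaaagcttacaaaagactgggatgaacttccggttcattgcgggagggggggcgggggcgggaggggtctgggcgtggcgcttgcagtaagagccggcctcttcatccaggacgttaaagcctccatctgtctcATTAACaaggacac

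The next 3 windows belong to members that fell. Hsd3b2 (ENSMUSG00000063730) has its window at chr3:98724494-98724793 on the minus strand, Akr1c21 (ENSMUSG00000021207) at chr13:4573825-4574124 on the plus strand and Akr1d1 (ENSMUSG00000038641) at chr6:37529923-37530222 on the plus strand.
Hsd3b2: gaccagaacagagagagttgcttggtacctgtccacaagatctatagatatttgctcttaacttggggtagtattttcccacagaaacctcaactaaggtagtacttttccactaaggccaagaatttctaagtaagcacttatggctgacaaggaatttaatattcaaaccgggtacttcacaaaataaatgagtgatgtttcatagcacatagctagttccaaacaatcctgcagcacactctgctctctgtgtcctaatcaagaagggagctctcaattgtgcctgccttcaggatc
Akr1c21: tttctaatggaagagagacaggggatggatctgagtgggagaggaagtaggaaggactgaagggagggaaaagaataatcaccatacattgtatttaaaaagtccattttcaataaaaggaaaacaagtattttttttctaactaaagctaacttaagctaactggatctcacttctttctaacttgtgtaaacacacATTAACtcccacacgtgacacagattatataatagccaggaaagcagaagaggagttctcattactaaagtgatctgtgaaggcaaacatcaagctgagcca
Akr1d1: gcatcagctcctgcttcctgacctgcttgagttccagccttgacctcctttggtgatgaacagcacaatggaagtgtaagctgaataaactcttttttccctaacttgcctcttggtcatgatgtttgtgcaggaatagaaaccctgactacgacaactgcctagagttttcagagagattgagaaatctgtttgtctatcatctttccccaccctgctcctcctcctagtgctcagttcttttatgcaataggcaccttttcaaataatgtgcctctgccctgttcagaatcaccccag

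The 3 motifs below were searched on both strands. TGACNNNGC, the core of the antioxidant response element bound by NRF2, was in 12.4% of all 32851 windows and in 8.77% of the members' windows, those of Akr1c19, Aldh1a2, Aldh9a1, Hsd11b1 and Hsd17b12. TGACTCA, the site of AP-1 factors, was in 5.2% of all windows and in those of Adh7, Aldh1a1 and Dhrs9 among the members (5.26%). GTTAAT, part of the site of the tubule factor HNF1, was in 7.1% of all windows and in 10.5% of the members' windows, 6 windows of Akr1b8, Akr1c21, Aldh1a7, Dhrs13os and Dhrs3. The motifs that begin with TGAC can overlap, and 311 of all windows held both. In the sequences above the capitals mark TGACTCA at bases -57 to -51 from the start of Aldh1a1 window 1, and GTTAAT read on the other strand (printed ATTAAC) at bases 37 to 42 of Akr1b8 and -52 to -47 of Akr1c21. A match is a description, not a site or a cause, and no match says only that these letters are not in the window.

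In the list of enzymes of retinol and retinaldehyde, 4 of 9 tested were called higher with cisplatin and 2 were called lower. Aldh1a7, 1 of the 4, was listed there as a paralog of Aldh1a1. For this and every role, partner or marker list below, 12.1% of all tested genes were called in each direction with cisplatin. Among these calls, those of Aldh1a3 and Dhrs4 ended with the label series as a covariate. Aldh1a1 measured 15.3, 15.3, 12.4, 12.1 and 20.4 CPM in the vehicle mice and 286, 301, 275, 285 and 297 CPM in the cisplatin mice. Every cisplatin value lay far above every vehicle value, 19.1-fold by the fit (adjusted p = 3.69e-15). Aldh1a2, another retinaldehyde dehydrogenase, measured 6.41, 2.61, 2.35, 2.82 and 2.64 CPM in vehicle and 40.65, 34.2, 36.85, 33.8 and 38.3 CPM in cisplatin mice. Vehicle replicate 1 stood above the other vehicle mice and still far below all cisplatin mice, and the log2 fold change was 3.44 (SE 0.292, adjusted p = 4.3e-10). Aldh1a7, a close paralog of Aldh1a1, measured 20.6, 24.3, 18.05, 20.5 and 26.5 CPM in vehicle and 66.3, 73.0, 61.7, 61.4 and 78.3 CPM in cisplatin mice. These groups did not overlap, and Aldh1a7 rose by 1.63 (SE 0.201, adjusted p = 1.81e-07).

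Aldh1a3, the third retinaldehyde dehydrogenase of that subfamily, measured 4.05, 4.45, 3.33, 4.40 and 2.70 CPM in vehicle and 13.45, 12.1, 13.4, 14.1 and 15.2 CPM in cisplatin mice. Groups were apart, but the spread shared over all groups was wide for this gene, with a log2 fold change of 1.85 (SE 0.599, adjusted p = 0.00872). Its call ended on leaving out any of 11 single libraries, where the adjusted p rose to at most 0.0222, and with the label series as a covariate (1.73, adjusted p = 0.037). On the lowering side, Adh1 fell from 420.2 ± 23.1 to 150.4 ± 20.9 CPM (SD, n = 5 each; log2 fold change -1.48, adjusted p = 3.75e-11), and no cisplatin mouse reached a vehicle mouse. Dhrs4 was called lower at -1.02 (SE 0.1, adjusted p = 4.18e-09), but not among higher label series mice alone (-0.97) or with the series as a covariate (-0.93). Dhrs3, which reduces retinaldehyde to retinol, fell by 0.94 on the log2 scale (adjusted p = 1.62e-05). Retinol-oxidising Dhrs9 was scarce, with 10 counts reached in 9 libraries, and did not pass (1.04, adjusted p = 0.0674).

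Of 10 mitochondrial and amino acid aldehyde dehydrogenases 3 were called lower, and at an adjusted p under 0.05 7 fell and 2 rose. Over all tested genes 12.1% were called lower, 35.9% fell and 34.6% rose. Aldh8a1, of the kynurenine pathway, measured 386, 361.5, 411, 401 and 407 CPM in vehicle and 87.6, 108, 106, 108 and 156 CPM in cisplatin mice. All 5 cisplatin mice were lower than all vehicle mice, with replicate 5 the highest of them, and the log2 fold change was -1.80 (SE 0.1, adjusted p = 3.25e-13). Aldh4a1, which ends proline breakdown, was called lower at -1.35 (SE 0.095), and Aldh16a1 at -1.17 (SE 0.056). Aldh6a1 fell by 0.98 on the log2 scale (SE 0.077), Aldh9a1 by 0.86 (SE 0.106) and Aldh7a1, of lysine breakdown, by 0.80 (SE 0.086). Aldh2 went the other way: it measured 1037, 1014, 943, 1047 and 1163 CPM in vehicle and 1333.5, 1924, 1613, 1641.5 and 1791 CPM in cisplatin mice. Its cisplatin values all exceeded the vehicle values, and it rose by 0.67 (SE 0.084, adjusted p = 2.01e-07). Aldh18a1, of proline synthesis, rose by 0.49 (SE 0.16, adjusted p = 0.00895).

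On the scale per kilobase, Aldh2 at 324 ± 43.2 and Akr1a1 at 326 ± 47.1 CPM per kilobase had close levels in cisplatin kidneys, while Akr1c21 was at 56.6 ± 35.2 CPM per kilobase (SD, n = 5 each). Of the formyltetrahydrofolate dehydrogenases, which link folate carbon units to NADPH, the cytosolic Aldh1l1 was 729.8 ± 37.3 CPM in vehicle and 686 ± 109 CPM in cisplatin mice (adjusted p = 0.332). The mitochondrial Aldh1l2 measured 6.02, 5.61, 5.21, 3.73 and 5.50 CPM in vehicle and 1.49, 2.91, 1.81, 3.16 and 3.09 CPM in cisplatin mice. No cisplatin mouse reached the lowest vehicle mouse, and Aldh1l2 was called lower at -1.07 (SE 0.181, adjusted p = 1.7e-05), but not among higher label series mice alone (-0.90). Some of its exon bases overlap D10Wsu102e on the other strand, where reads may not have been counted.

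Of the 5 fatty and aromatic aldehyde dehydrogenases 1 was called higher and 1 lower, numbers too small to set against the 12.1% of all tested genes called in each direction. Aldh3b3 fell by 3.54 (SE 0.331, adjusted p = 2.2e-09), and measured 2.165 to 4.201 CPM in the vehicle mice and 0.198 to 0.401 CPM in the cisplatin mice. Aldh3a2, which oxidises fatty aldehydes, fell by 0.90 (SE 0.048). Aldh3a1 measured 0.0972, 1.20, 0, 0.704 and 0.163 CPM in vehicle and 1.119, 1.56, 2.45, 2.86 and 3.115 CPM in cisplatin mice. Vehicle replicate 2 lay above cisplatin replicate 1, the only overlap, and the call at 2.41 (SE 0.748, adjusted p = 0.00658) ended on leaving out any of 6 single libraries. It also ended with a replicate block (2.49, adjusted p = 0.0106), with the label series as a covariate (2.60, adjusted p = 0.0167) and with DESeq2 (2.38, adjusted p = 0.0104), at estimates close to the first. Markers of urothelium, a list written after the data were seen, summed to at least 87.9 CPM (median 101.1) in cisplatin mice and 4.76 to 35.7 CPM in vehicle mice, with 6 of 7 called higher, none at 0 and the most counts in Psca, at 34.8 CPM in cisplatin mice. Their part in the rise of Aldh1a3 and Aldh3a1 was not tested.

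Aldehyde and aldose reductases held 1 member called higher and 3 called lower of 6. Akr1b8 measured 3.14, 4.41, 2.02, 2.68 and 2.70 CPM in vehicle and 45.85, 39.2, 42.7, 43.45 and 38.7 CPM in cisplatin mice. The groups were far apart, by 14.1-fold (adjusted p = 7.66e-15). Akr1a1 measured 2363, 2274, 2134, 2175 and 2048 CPM in vehicle and 741, 889, 882, 870.2 and 1101 CPM in cisplatin mice. It fell in every cisplatin mouse, least in replicate 5, with a log2 fold change of -1.29 (SE 0.081, adjusted p = 2.24e-12). Akr7a5 was called lower at -1.02 (SE 0.073) and Akr1b7, an aldose reductase-like enzyme known from adrenal cortex, at -1.59 (SE 0.427, adjusted p = 0.00213). Akr1b7 was not called among higher label series mice alone (-1.48, adjusted p = 0.0385) or without the libraries highest in fat markers (-1.36, adjusted p = 0.0523), where fewer mice entered and the estimate was close to the first, and DESeq2 gave it no adjusted p. Akr1b10 fell by 0.55 (SE 0.065).

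Of the AKR1C and AKR1D steroid reductases 4 of 8 were called lower and 2 called higher. Akr1c21 and Akr1d1 had the largest falls of all members after Hsd3b2, followed by Aldh3b3 (-3.54) of another role. Akr1c21 measured 1599, 1533, 1466, 1594 and 1481 CPM in vehicle and 19.8, 57.6, 86.2, 99.0 and 162.5 CPM in cisplatin mice. Cisplatin mice were all far below vehicle and spread widely among themselves, lowest in replicate 1 (adjusted p = 1.28e-10). Akr1d1, the steroid 5-beta-reductase of bile acid synthesis, measured 32.6, 30.3, 54.2, 42.2 and 45.4 CPM in vehicle and 1.465, 2.71, 3.62, 4.15 and 4.56 CPM in cisplatin mice. There was no overlap, and it fell by 3.64 (SE 0.228, adjusted p = 2.51e-12). Akr1c14, a 3-alpha-hydroxysteroid dehydrogenase, measured 173.5, 221, 336, 268 and 219.6 CPM in vehicle and 21.3, 48.6, 32.1, 37.4 and 41.03 CPM in cisplatin mice. Vehicle mice differed widely among themselves, yet all were above all cisplatin mice (-2.75, SE 0.198, adjusted p = 2.35e-11).

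In the same gene cluster, Akr1c12 and Akr1c13 rose. Akr1c13 measured 12.5, 14.8, 13.4, 9.58 and 13.4 CPM in vehicle and 39.6, 40.1, 44.1, 44.2 and 43.6 CPM in cisplatin mice. Akr1c12 lay between 2.45 and 3.03 CPM in vehicle and between 6.90 and 9.74 CPM in cisplatin mice. Neither overlapped between the groups, with log2 fold changes of 1.73 (SE 0.114) for Akr1c13 and 1.63 (SE 0.163) for Akr1c12. Akr1c18, which inactivates progesterone, was at 8.23 ± 4.36 and 9.94 ± 2.78 CPM (adjusted p = 0.408). Akr1c20 was scarce, under 10 counts in all 5 cisplatin libraries, and was called lower at -1.85 (SE 0.504, adjusted p = 0.0024). These neighbours are near copies of each other, and the authors kept only reads with a single alignment, so reads that fit several of them were not counted.

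Among the 3-beta-hydroxysteroid dehydrogenases, which oxidise and isomerise steroid precursors, 2 of 3 tested were called lower. Hsd3b2 measured 108, 119, 126, 122.5 and 115 CPM in vehicle and 2.58, 5.05, 4.88, 5.24 and 8.86 CPM in cisplatin mice. It fell in every cisplatin mouse, 22.2-fold by the fit (adjusted p = 7.47e-14). Hsd3b3 measured 80.2, 72.0, 99.8, 66.6 and 67.1 CPM in vehicle and 15.3, 29.0, 22.6, 26.9 and 39.4 CPM in cisplatin mice. Cisplatin replicate 5 was again the highest of its group and below every vehicle mouse (-1.53, SE 0.173, adjusted p = 4.68e-08). Hsd3b7, of bile acid synthesis, rose by 0.86 (SE 0.214, adjusted p = 0.00109) from a mean of 1.20 to 2.18 CPM. Most of its exon bases overlap Gm49388 on the same strand and 9430064I24Rik on the other, so its count may rest on the remaining bases only.

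The glucocorticoid enzymes differed in direction, with a small rise and overlapping groups for Hsd11b1. Hsd11b1, which regenerates active glucocorticoid, measured 61.7, 55.8, 97.35, 95.0 and 77.65 CPM in vehicle and 101, 116, 100.3, 95.0 and 83.1 CPM in cisplatin mice. These ranges overlapped, and the rise was 0.36 (SE 0.127, adjusted p = 0.0164). Vehicle replicates 1 and 2, the lowest for Hsd11b1, also held the most fat markers of their group (749.2 and 1381.1 CPM). Vehicle replicates 3 and 4 lay within the cisplatin range. Hsd11b2, which inactivates glucocorticoid in the collecting duct, measured 119, 93.7, 114.5, 97.0 and 102.5 CPM in vehicle and 54.05, 62.9, 50.8, 51.7 and 60.7 CPM in cisplatin mice. Here the groups were apart, and it fell by 0.91 (SE 0.069, adjusted p = 5.34e-11). Principal cell markers, which share the collecting duct with Hsd11b2, summed to 303 to 551 CPM in vehicle and 584 to 849 CPM in cisplatin mice, with 1 of 5 called higher, 4 not called, none at 0 and the most counts in Aqp2. Their part in this result was not tested.

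Of 7 tested 17-beta-hydroxysteroid dehydrogenases 2 were called lower, and at an adjusted p under 0.05 5 fell and 2 rose. Of all tested genes 12.1% were called lower, 35.9% fell and 34.6% rose. Hsd17b2, which inactivates oestradiol and testosterone, measured 9.46, 11.47, 10.99, 12.8 and 12.0 CPM in vehicle and 4.21, 4.19, 4.74, 4.23 and 4.67 CPM in cisplatin mice. The groups did not overlap (-1.36, SE 0.113, adjusted p = 2.81e-10). Hsd17b11, a lipid droplet enzyme, fell by 1.12 (SE 0.118, adjusted p = 1.53e-08); its call ended with library size only and when a change beyond 1 was tested (adjusted p = 0.268). Hsd17b4, of peroxisomal beta-oxidation, rose by 0.30 (SE 0.069) and the mitochondrial Hsd17b10 by 0.31 (SE 0.05). The xenobiotic monooxygenases Fmo1, Fmo2 and Fmo5 were all called lower. Fmo1 measured 880.5, 813.5, 838, 964 and 955 CPM in vehicle and 281.5, 256, 298, 339.3 and 450.5 CPM in cisplatin mice. Cisplatin mice were all lower than vehicle mice (-1.45, SE 0.139, adjusted p = 3.2e-09). Fmo2 fell by 1.34 (SE 0.115) and Fmo5 by 1.94 (SE 0.157), while Fmo4 was at 50.05 ± 3.86 and 51.05 ± 2.22 CPM (adjusted p = 0.748).

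The 5 other DHRS enzymes tested changed by less than a call asks for, 4 of them lower and 1 higher at an adjusted p under 0.05, with log2 fold changes from -0.48 to 0.30. Dhrs7 was the higher one, from 18.4 ± 3.32 to 22.6 ± 1.08 CPM (0.30, SE 0.122), and its groups overlapped. Hsd17b14 fell by 0.92 on the log2 scale (SE 0.219, adjusted p = 0.000736), from 2.30 to 5.41 CPM in vehicle to 1.57 to 2.54 CPM in cisplatin mice, and the ranges overlapped. Adh5, which removes formaldehyde as its glutathione adduct, was at 218 ± 8.985 CPM in vehicle and 204 ± 11.6 CPM in cisplatin mice. Its log2 difference was -0.10 (SE 0.048, adjusted p = 0.0771) and turned to 0.12 (adjusted p = 0.0153) with scaling by library size only, where the median over all genes moved to 0.204. Adh7, a retinol-oxidising enzyme of epithelia, was scarce at 0.667 ± 0.104 and 0.816 ± 0.103 CPM (0.29, adjusted p = 0.33). Of the members not named by rule, Akr1e1 and the succinic semialdehyde dehydrogenase Aldh5a1 each fell by 0.62, Hsd17b1 fell by 0.72 (SE 0.255), Aldh3b1 rose by 0.52 (SE 0.11), and Aldh1b1, Aldh3b2, Adh6b and Dhrs13os did not pass, with adjusted p-values of 0.18 to 0.824.

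**Figure D4:**
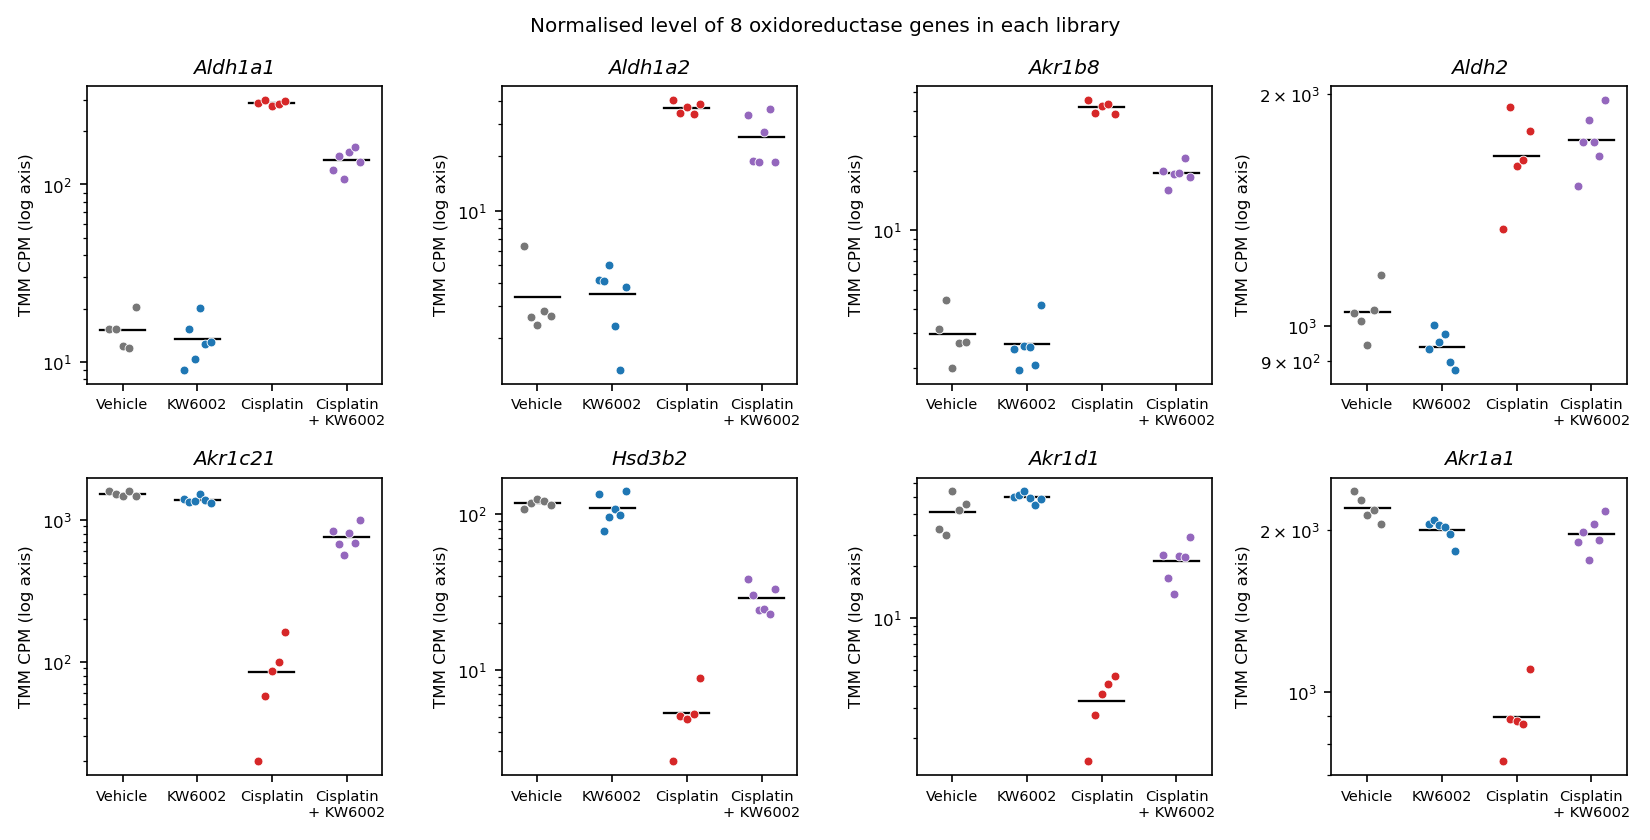
Level (TMM CPM, log axis) of 8 genes in each library by treatment group; points are mice and lines are group means. By group mean, Aldh1a1, Aldh1a2 and Akr1b8 are highest with cisplatin, and Akr1c21, Hsd3b2, Akr1d1 and Akr1a1 are lowest there. For these genes co-treated means lie in between, and co-treated mice overlap cisplatin for Aldh1a2 and vehicle for Akr1a1. Aldh2 is higher than in vehicle in both groups given cisplatin, and those groups overlap.

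When KW6002 was added to cisplatin, several steroid enzymes were higher and some of the enzymes that rose with cisplatin were lower. Against cisplatin alone, Akr1c21 was 8.97-fold higher (log2 fold change 3.17, SE 0.31), Hsd3b2 5.46-fold (2.45, SE 0.213) and Akr1d1 6.5-fold (2.70, SE 0.221), each in all 6 co-treated mice. Aldh1a1 fell by 1.08 on the log2 scale (SE 0.147) and Akr1b8 by 1.11 (SE 0.136). Of the 65 members 9 were called higher and 3 were called lower, against 4.65% and 5.66% of all tested genes. At an adjusted p under 0.05, 31 rose and 8 fell, against 28.6% and 27.2% of all tested genes, and the median log2 fold change was 0.24 over the members and 0.01 over all genes. By role, the members called higher were 3 of 8 AKR1C and AKR1D steroid reductases, 2 of 3 3-beta-hydroxysteroid dehydrogenases, 2 of 6 aldehyde and aldose reductases, Aldh8a1 and Aldh1l2. The members called lower were Aldh1a1, Dhrs9 and Akr1b8. This comparison shares its cisplatin mice with the one above, so values are given side by side and no overlap is read. All mice given cisplatin belong to the higher label series.

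Akr1c21 ranged from 566 to 999 CPM with a median of 753 CPM in co-treated mice, against 19.8 to 162.5 CPM with cisplatin alone and 1466 to 1599 CPM in vehicle mice. Co-treated mice lay between both other groups without overlap (adjusted p = 1.6e-08 against cisplatin). Hsd3b2 ranged from 22.99 to 38.6 CPM with a median of 27.5 CPM, above all cisplatin mice (2.58 to 8.86 CPM) and below all vehicle mice. For Hsd3b2 the adjusted p was 2.93e-09 against cisplatin and 5.23e-09 against vehicle. Akr1d1 ranged from 13.8 to 29.25 CPM with a median of 22.6 CPM. It stayed under the lowest vehicle mouse at 30.3 CPM and above every cisplatin mouse (adjusted p = 1.1e-09). Akr1a1 ranged from 1760.5 to 2167 CPM with a median of 1952 CPM. It overlapped vehicle and not cisplatin (1.13, SE 0.078, adjusted p = 8.71e-11), and against vehicle the adjusted p was 0.0689.

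Hsd3b3 ranged from 57.2 to 95.9 CPM with a median of 73.4 CPM, above all cisplatin mice and across the vehicle range (1.49, SE 0.168, adjusted p = 1.33e-07). Aldh8a1 ranged from 230.5 to 274 CPM with a median of 257 CPM. All 6 were above cisplatin and below vehicle (1.18, SE 0.096, adjusted p = 1.02e-09). Aldh1l2 ranged from 8.13 to 13.4 CPM with a median of 8.97 CPM, so that every co-treated mouse was above every cisplatin and every vehicle mouse. It rose by 1.94 (SE 0.174, adjusted p = 4.65e-09) against cisplatin and by 0.87 (SE 0.166, adjusted p = 0.000103) against vehicle. Akr1c20 ranged from 0.961 to 2.49 CPM with a median of 1.63 CPM, above the cisplatin range of 0.0251 to 0.227 CPM and the vehicle range of 0.2915 to 0.599 CPM. Its rise was 3.95 (SE 0.425, adjusted p = 6.49e-08) against cisplatin and 2.10 (SE 0.362, adjusted p = 3.28e-05) against vehicle.

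On the side of the enzymes that rose with cisplatin, Aldh1a1 ranged from 107 to 162 CPM with a median of 139 CPM in co-treated mice. That was below every cisplatin mouse and above every vehicle mouse (adjusted p = 1.98e-06 against cisplatin, 7.28e-13 against vehicle). Akr1b8 ranged from 16.0 to 23.2 CPM with a median of 19.3 CPM, likewise between the other groups (adjusted p = 4.26e-07 against cisplatin). Aldh1a2 ranged from 18.5 to 36.2 CPM with a median of 22.8 CPM, overlapped cisplatin and did not pass (-0.53, adjusted p = 0.0612). Dhrs9 was under 10 counts in all 6 co-treated libraries, at 0.0573 to 0.157 CPM, and was called lower at -2.96 (SE 0.567, adjusted p = 0.000126). In the cisplatin mice Dhrs9 measured 1.20, 0.251, 1.15, 1.097 and 0.198 CPM, so that replicates 2 and 5 were low and the others high. Hsd11b1 ranged from 51.9 to 68.3 CPM with a median of 59.2 CPM, below every cisplatin mouse, and fell by 0.75 (SE 0.121, adjusted p = 1.68e-05). Hsd11b2 rose by 0.46 (SE 0.066, adjusted p = 3.3e-06) to a median of 77.85 CPM, above all cisplatin mice and below all vehicle mice. Hsd17b4 fell by 0.50 (SE 0.065, adjusted p = 1.03e-06).

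Some members that changed with cisplatin showed no difference past the threshold when KW6002 was added. Akr1c14 ranged from 31.9 to 54.85 CPM (0.21, SE 0.181, adjusted p = 0.341) and Fmo5 from 34.6 to 64.4 CPM (0.04, SE 0.148). Each overlapped its cisplatin range and lay below every vehicle mouse. Hsd17b11 ranged from 93.3 to 136 CPM (-0.13, SE 0.112, adjusted p = 0.323). Among enzymes raised by cisplatin, Akr1c13 ranged from 33.3 to 44.8 CPM (-0.11, SE 0.103, adjusted p = 0.389), Aldh1a7 from 43.7 to 90.4 CPM (0.02, SE 0.184, adjusted p = 0.923) and Aldh2 from 1519 to 1968 CPM (0.07, SE 0.08, adjusted p = 0.47). Akr1c12 ranged from 9.56 to 20.1 CPM with a median of 14.01 CPM and rose further, by 0.75 (SE 0.143, adjusted p = 0.000119). Akr1c19, singled out after its values were seen, did not pass with cisplatin alone (34.4 ± 4.295 CPM in vehicle, 34.4 ± 3.34 CPM in cisplatin mice). It ranged from 52.5 to 75.85 CPM in co-treated mice, above every mouse of those groups, and rose by 0.89 (SE 0.107, adjusted p = 3.03e-07).

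Proximal tubule markers summed to 6431 to 11653 CPM in co-treated mice, above all 5 cisplatin mice and below all vehicle mice, with 6 of 10 called higher than with cisplatin alone and the most counts in Slc34a1, at 3063 ± 806 CPM. Tubular injury markers summed to 454 to 899.9 CPM with 4 of 6 called lower, none at 0 and the most counts in Lcn2. Thick ascending limb markers summed to 2550.5 to 4722.6 CPM, with 4 of 5 called higher than with cisplatin alone. Markers called higher were also 3 of 4 of the distal convoluted tubule and 2 of 5 of intercalated cells. No principal cell marker was called. Of all tested genes 4.65% were called higher and 5.66% lower in co-treated than in cisplatin mice. Fat markers, with the most counts in Fabp4, had 4 of 6 called lower, with every cisplatin mouse (from 413 CPM) above every co-treated mouse (to 374 CPM), and 3 of 7 urothelial and 2 of 5 fibroblast markers were called lower too. Without the 4 libraries highest in fat markers 11 members were called, 8 higher and 3 lower. The summed level of the members was 11443 ± 768 CPM (SD, n = 6). The part of these marker shifts in the members' changes was not tested.

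Single co-treated libraries stood apart for a few members. Co-treated replicate 6 held 65.3 CPM of adrenal markers, with Star at 25.04, Cyp11b1 at 15.5, Cyp21a1 at 14.6 and Cyp11a1 at 9.25 CPM, and no other library exceeded 3.46 CPM in sum. Hsd3b1, an adrenal and gonadal steroid enzyme outside the count rule, had 665 counts (19.05 CPM) there and at most 0.596 CPM elsewhere. Akr1b7 measured 10.1 CPM in this mouse and 1.31 to 2.12 CPM in the other co-treated mice, and was called higher at 1.32 (SE 0.413, adjusted p = 0.00954). That call ended on leaving out any of 16 single libraries and with a replicate block (0.67, adjusted p = 0.0775). Without this library the log2 fold change was 0.46 (adjusted p = 0.0458), and against vehicle it was -1.13 (adjusted p = 1.46e-05) in place of -0.27. Co-treated replicate 1 held 79.8 CPM of urothelial markers against 21.9 to 44.2 CPM in the other co-treated mice. KW6002 mice also differed in Aldh1a3, with 21.8 CPM in replicate 5, above every cisplatin mouse, 10.68 CPM in replicate 3 and 2.76 to 6.12 CPM in the others, while urothelial markers summed to 41.07 and 44.56 CPM in replicates 5 and 3. In co-treated replicate 1 Aldh1a3 measured 24.9 CPM and Aldh3a1 4.19 CPM, and the other co-treated mice lay at 2.18 to 4.002 CPM and 0.188 to 0.541 CPM. Without it Aldh1a3 was called lower against cisplatin at -2.22 (adjusted p = 6.15e-05) in place of -1.05 (adjusted p = 0.103), and Aldh3a1 at -2.56 (adjusted p = 0.000265) in place of -1.15 (adjusted p = 0.126).

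**Figure D5:**
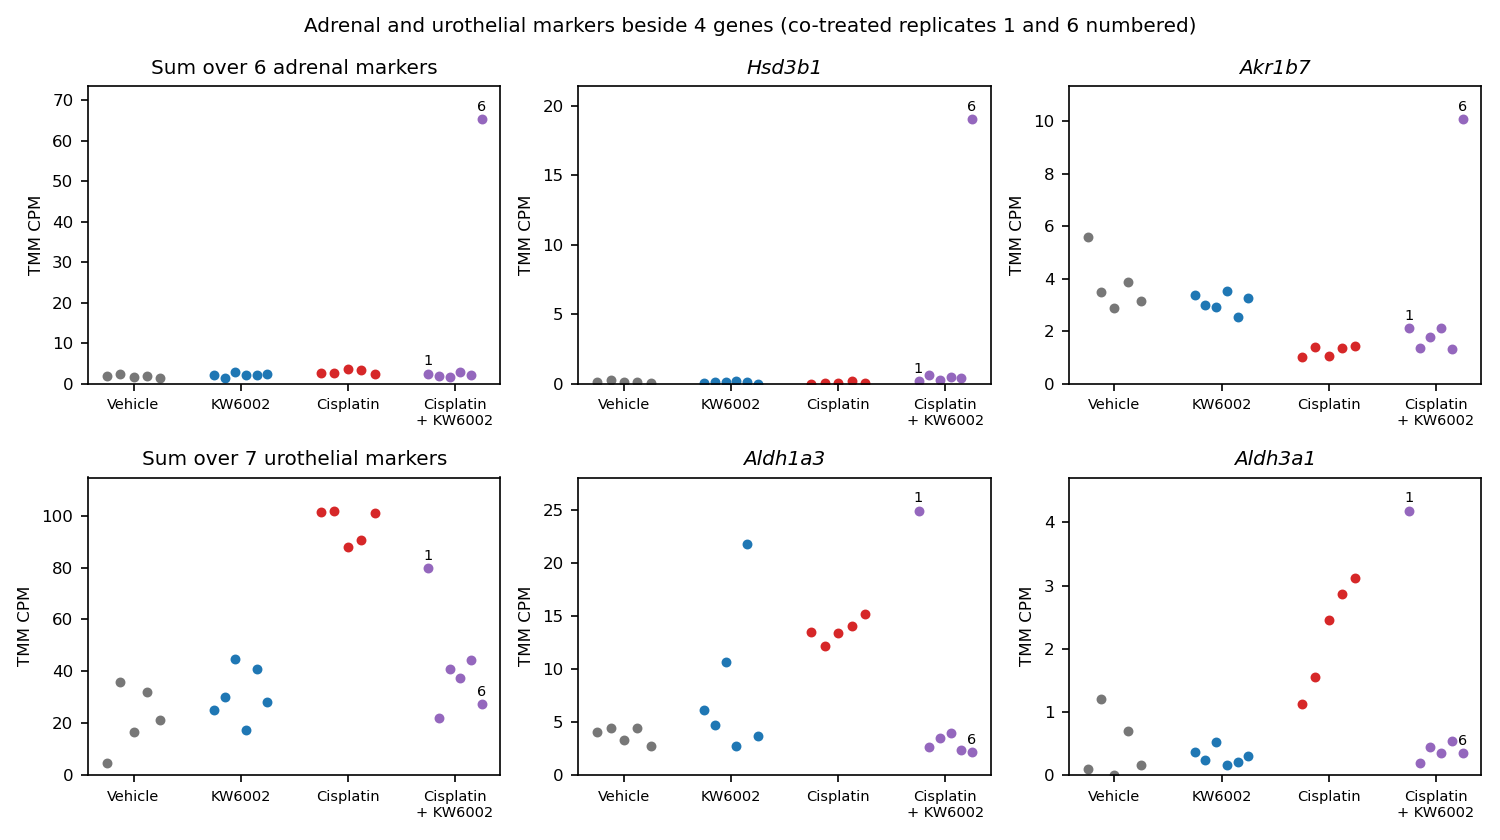
Level (TMM CPM) of adrenal and urothelial marker sums and of Hsd3b1, Akr1b7, Aldh1a3 and Aldh3a1 in each library by treatment group; co-treated replicates 1 and 6 are numbered. Replicate 6 stands alone for the adrenal sum (65.3 CPM), Hsd3b1 and Akr1b7, and replicate 1 is the highest co-treated library for the urothelial sum, Aldh1a3 and Aldh3a1.

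Against vehicle, co-treated kidneys had 7 members called higher and 7 called lower, where 5.83% and 7.59% of all tested genes were called, and the median log2 fold change was -0.24. Higher members were Aldh1a1, Aldh1a2, Aldh1a7, Akr1b8, Akr1c12, Akr1c13 and Akr1c20. Lower members were Akr1c14, Akr1c21, Aldh3b3, Fmo1, Fmo5, Hsd3b2 and Hsd17b11. Aldh1a1 had the largest rise at 3.18 (SE 0.169, adjusted p = 7.28e-13) and Aldh3b3 the largest fall at -2.75 (SE 0.294, adjusted p = 4.48e-08). Akr1c21 stood at -1.01 (SE 0.277, adjusted p = 0.00338), close to the limit for a call, and its call ended on leaving out any of 5 single libraries (-0.94 to -0.99). Its estimate was alike among higher label series mice alone (-1.01, adjusted p = 0.0464) and with the series as a covariate (-1.02, adjusted p = 0.0101), though the adjusted p no longer gave a call. These values rest on the same vehicle mice as the cisplatin comparison. Among mice of the higher label series alone 17 members were called, 9 higher and 8 lower, with Adh6b, Akr1d1, Aldh1l2 and Hsd3b7 newly called. With library size only 9 were called higher and 5 lower, against 1327 and 1020 of all tested genes: Akr1c21 (-0.85) and Fmo1 (-0.91) were no longer called, and Akr1c19 (1.05) and Aldh1l2 (1.03) were.

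With KW6002 given without cisplatin, no member was called higher or lower by edgeR, where 0% and 0% of all tested genes were called, and DESeq2 called 0 members too. The count was also 0 among mice of the higher label series alone. At an adjusted p under 0.05 the number of members was 0, against 0.0175% of all tested genes higher and 0% lower. With an unadjusted p under 0.05 there were 11 members (16.9%), 6 higher and 5 lower, against 11.3% of all tested genes. The lowest adjusted p was that of Fmo4, a monooxygenase, at 0.158. Fmo4 measured 53.1, 55.1, 45.9, 47.8 and 48.3 CPM in vehicle mice and 37.6 to 44.4 CPM with a median of 41.03 CPM in KW6002 mice. Those ranges did not touch, with a log2 difference of -0.28 (SE 0.073). Aldh1a1 lay between 9.03 and 20.1 CPM, Akr1c21 between 1323 and 1518 CPM and Hsd3b2 between 77.9 and 141 CPM in KW6002 mice. Their vehicle ranges overlapped with these, and their log2 differences were -0.17, -0.14 and -0.11. The summed level of the members was 14067 ± 376 CPM (SD, n = 6).

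Whether KW6002 acted differently with and without cisplatin was tested directly, as the difference between both KW6002 effects. Positive values mean that KW6002 raised a gene more in mice given cisplatin. Of the members 8 were called higher and 1 was called lower, against 4.24% and 4.33% of all tested genes. At an adjusted p under 0.05 the counts were 26 and 7, against 22.8% and 19.9% of all tested genes, with a median of 0.26 over the members and 0.01 over all genes. The difference was 4.03 (SE 0.606) for Akr1c20, 3.31 (SE 0.403) for Akr1c21, 2.56 (SE 0.277) for Hsd3b2 and 2.42 (SE 0.284) for Akr1d1. It was 2.12 (SE 0.24) for Aldh1l2, 1.27 (SE 0.108) for Akr1a1, 1.24 (SE 0.23) for Hsd3b3 and 1.17 (SE 0.132) for Aldh8a1. Their adjusted p-values ran from 8.98e-09 for Akr1a1 to 0.000159 for Hsd3b3. Hsd11b1 was the member called lower at -1.09 (SE 0.173, adjusted p = 2.78e-05), with KW6002 effects of 0.34 without and -0.75 with cisplatin. Among mice of the higher label series alone 9 members were called, 8 higher and 1 lower, and the lower one was Akr1b8 (-1.23, adjusted p = 0.00127) in place of Hsd11b1 (-0.96). Without the 4 libraries highest in fat markers Hsd11b1 was likewise not called (-0.89).

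Genes that work beside these enzymes were counted from lists of partners. Of 20 tested retinoid partners, which carry, store or break down retinoids or bind them in the nucleus, 6 were called higher and 3 called lower with cisplatin. Crabp1, a retinoic acid binding protein, was at 9.03 CPM with cisplatin, 0.0282 CPM in vehicle and 0.0316 CPM in co-treated mice. The retinoic acid hydroxylase Cyp26b1 rose from 8.31 to 41.2 CPM and was at 25.6 CPM in co-treated mice. Stra6, the retinol transporter, fell from 5.24 to 0.789 CPM and stood at 4.68 CPM in co-treated mice. Lrat, which stores retinol as esters, fell from 7.18 to 2.00 CPM and stood at 9.81 CPM in co-treated mice. When KW6002 was added to cisplatin, 3 of these partners were called higher and 5 called lower. For this and the partner lists below, 4.65% of all tested genes were called higher and 5.66% lower in that comparison.

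Corticosteroid partners had 5 of 11 called higher with cisplatin and 6 not called. H6pd, which supplies Hsd11b1 with NADPH, rose from 343 to 988 CPM and was called lower in co-treated than in cisplatin mice at -1.06 (SE 0.082), with a mean of 475 CPM. Fkbp5, a glucocorticoid-induced gene, rose from 159 to 695.5 CPM and was at 389 CPM in co-treated mice. A list of NRF2 (Nfe2l2), the factor that answers electrophiles, with its inhibitor Keap1 and its targets had 6 of 10 called higher, Nfe2l2 among them, and 1 called lower with cisplatin, and 2 called lower when KW6002 was added. Srxn1 rose from 69.1 to 947.5 CPM and was at 378 CPM in co-treated mice, while the quinone reductase Nqo1 rose to 474 CPM and was at 459 CPM in co-treated mice. Among related oxidoreductases outside the symbol rule, a list that also holds aldehyde oxidases, xanthine dehydrogenase and monoamine oxidases, 7 of 20 were called higher (Cbr1, Cbr3, Hsdl2, Aox1, Xdh, Maoa and Maob) and 5 called lower with cisplatin. Cbr3, a carbonyl reductase, rose from 1.48 to 112 CPM (6.25, SE 0.222) and Cbr1 from 39.0 to 451 CPM (3.53, SE 0.099), and they were at 65.9 and 396 CPM in co-treated mice. The sorbitol dehydrogenase Sord fell from 1390.4 to 419 CPM and stood at 1028 CPM in co-treated mice. Of 10 tubule transcription factors 7 fell and 2 rose with cisplatin at an adjusted p under 0.05, and Lhx1 was the 1 called lower (-1.41, SE 0.103). Of all tested genes 35.9% fell, 34.6% rose and 12.1% were called lower. Hnf4a, a factor of proximal tubule identity, fell from 982 to 653 CPM and was at 972 CPM in co-treated mice.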

How the data were processed

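RNA of whole kidney from 22 mice was measured as 1 library per mouse. The deposited values are raw counts of reads per Ensembl gene, made by the authors from stranded TruSeq mRNA libraries. The submitters' processing notes name bcl2fastq 2.17.1.14, STAR, HTSeq 0.6.1p1 and the mm10 build. By the authors' methods, reads with more than 1 alignment were dropped and HTSeq ran in its union mode, which leaves out reads that touch more than 1 gene. The kit marks strand, but whether the counting used it is not stated, so reads of overlapping genes on opposite strands (Hsd3b7 with 9430064I24Rik, Aldh6a1 with Bbof1, Aldh1l2 with D10Wsu102e, Aldh5a1 with 4932702P03Rik, Hsd3b2 and Hsd3b3 with Zfp697, and others) may or may not have been counted. Reads shared by close paralogs (Aldh1a1 and Aldh1a7, the Akr1c cluster, Hsd3b2 and Hsd3b3, Akr1b7, Akr1b8 and Akr1b10) or by genes that overlap on the same strand (Hsd3b7 with Gm49388, Aldh4a1 with Gm21969, Akr1c14 with Gm18857, and others) would not be counted. A further 66 columns without a name or a value were not used. Symbols, positions and exon lengths came from GENCODE M21, and the 34 genes without a symbol held 0.00459% of the counts.

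Counts were analysed in R 4.3.3 with edgeR 4.0.16. The low-count filter was filterByExpr, run by group, with its CPM limit at 0.306; it left 17131 genes with 99.95% of the counts. Libraries were scaled by TMM, 1 mean was fitted per group over all 22 libraries without covariates, and the biological coefficient of variation was 0.129. Each comparison used edgeR's quasi-likelihood F test with Benjamini-Hochberg adjustment over the 17131 genes. Levels per length are CPM divided by kilobases of the union of exons. A count of 0 allows up to 3 counts of a library's total, for counting error only. The fitting steps were tested on simulated data.

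Members and lists were chosen with earlier results of these data known. The 49 genes named by rule are textbook enzymes of the families that met the count rule, up to 12 called members in each direction that changed most for cisplatin against vehicle and for co-treated against cisplatin, the 10 highest per length in vehicle, and up to 5 called members in each direction with the largest differences of KW6002 effects, of which 1 was lower. Akr1c19, Aldh16a1, Hsd3b1 and other members named beside these were chosen after their values were seen, as was the list of urothelial markers. Role lists, partner lists and 15 further lists of cell type and injury markers are described by counts and sums, with no set test. A member that was counted and tested with the others is not reported singly here.

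Alternatives were DESeq2 1.42.0, RLE factors, library size only, other count filters, a replicate block, fits to the groups of 1 comparison alone, the label series as a covariate or its higher part alone, glmTreat with a log2 fold change of 1 as its null bound, a threshold of 0.05, longest transcripts for length, and each library left out in turn. Fits without the libraries highest in fat, adrenal or urothelial markers were chosen after seeing the data.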

Additional observations from a re-analysis of the deposited data

Results flagged for a closer look

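In 19 of 224 groups of libraries checked, 1 library stood far from the others. Its gap to the nearest, divided by the range of the group, passed Dixon's 95% value. Chance gives about 1 in 20 independent groups. These groups were not independent, and Hsd3b1 and the urothelial sum were added after the data were seen, so the 19 cannot be set against that rate. Co-treated replicate 6 was the highest of its group for the adrenal marker sum (65.3 CPM, gap 0.983), Hsd3b1 (19.05 CPM, gap 0.977), Akr1b7 (10.1 CPM, gap 0.908), Adh5 (236 CPM, gap 0.767), Akr7a5 (270.5 CPM, gap 0.733) and Dhrs4 (294 CPM, gap 0.705). Co-treated replicate 1 was the highest for Aldh1a3 (24.9 CPM, gap 0.92), Aldh3a1 (4.19 CPM, gap 0.912) and Aldh1l2 (13.4 CPM, gap 0.681). KW6002 replicate 6 was the highest for Akr1b8 (4.18 CPM, gap 0.711) and Aldh18a1 (5.06 CPM, gap 0.645) and the lowest for the summed level of the members (gap 0.627).

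Lowest among cisplatin mice was replicate 1 for Hsd17b10 (114.4 CPM, gap 0.798) and Adh5 (184 CPM, gap 0.735). Cisplatin replicate 5 was the highest for Hsd17b11 (145 CPM, gap 0.744) and the lowest for the tubular injury marker sum (1528 CPM, gap 0.762). Among vehicle mice, replicate 1 was the highest for Aldh1a2 (6.41 CPM, gap 0.885), replicate 2 the highest for Hsd17b4 (368 CPM, gap 0.762) and replicate 5 the lowest for Adh5 (203 CPM, gap 0.71).

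By the test of the difference itself, the KW6002 effect differed between mice given cisplatin and mice not given it at an adjusted p under 0.05 for 26 members upward and 7 downward, and 9 were called. For those 9, on the log2 scale, the difference was 4.03 for Akr1c20, 3.31 for Akr1c21, 2.56 for Hsd3b2, 2.42 for Akr1d1, 2.12 for Aldh1l2, 1.27 for Akr1a1, 1.24 for Hsd3b3, 1.17 for Aldh8a1 and -1.09 for Hsd11b1, whose call ended without vehicle replicate 2 (-0.99), without the libraries highest in fat markers (-0.89) and among higher label series mice alone (-0.96).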

How the results depend on the processing

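Across 522 recomputed counts of called members 502 equalled the count given or stayed within 1.5 times of it, and 20 moved further. Most of these counts come from leaving out a single library, so they share nearly all mice. Those for KW6002 against vehicle were 0 there and could hardly move. Of 8256 recomputed fold changes of single members 8021 stayed on their side of an adjusted p of 0.05, 176 fell short of it and 57 newly passed it. The other 2 turned direction with an adjusted p under 0.05. A turn of direction that passed in neither fit was counted among the 8021. Testing whether log2 fold changes exceed 1 called 6 members for co-treated against cisplatin mice (5 higher, 1 lower). The calls of Aldh1a1, Akr1b8 (adjusted p = 0.908), Akr1b7, Akr1a1, Aldh8a1 and Hsd3b3 (adjusted p = 0.0216) ended there, and the lower member left was the scarce Dhrs9. The same test called 4 lower members for co-treated against vehicle mice, and 5 for the difference of KW6002 effects (5 higher, 0 lower). For that difference the lower members numbered 2 with DESeq2, 2 with library size only and 3 at an adjusted p under 0.05 with a log2 fold change beyond 1. Without the co-treated libraries highest in adrenal and urothelial markers, left out after seeing the data, 6 members were lower in co-treated than in cisplatin mice and 3 were lower for the difference. With library size only the summed level was 13490.7 CPM in vehicle and 13281.2 CPM in KW6002 mice, and all genes shifted by a median of 0.204 for cisplatin and 0.155 for co-treated mice against vehicle. Only there did Adh5 turn with an adjusted p under 0.05. It stood at 0.12 against vehicle in cisplatin mice and at 0.12 (adjusted p = 0.012) in co-treated mice. The cause of the other changes was not tested. Members numbered 78 with no count filter and 57 with 10 counts in all libraries.

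Same-numbered mice deviated together with correlations from -0.175 to 0.405, and the numbers were not taken as pairs. For KW6002 against vehicle mice the correlations were 0.405, -0.153, 0.132, 0.155 and 0.194 for replicates 1 to 5. In both of those groups replicates 1 to 3 belong to the lower label series. With the number as a replicate block 28 members were called for cisplatin against vehicle, 11 for co-treated against cisplatin, 0 for KW6002 against vehicle, 15 for co-treated against vehicle and 9 for the difference.

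Leaving out each library in turn gave 25 to 30 calls for cisplatin against vehicle (6 to 8 higher, 18 to 22 lower). It gave 11 to 16 for co-treated against cisplatin mice (8 to 10 higher, 3 to 6 lower), 0 for KW6002 against vehicle, 13 to 16 for co-treated against vehicle (7 to 8 higher, 6 to 9 lower) and 9 to 11 for the difference (8 to 9 higher, 1 to 3 lower). For cisplatin against vehicle, the call of Aldh1a3 ended without any single vehicle or cisplatin mouse or KW6002 replicate 3 (adjusted p = 0.0102 to 0.0222). That of Aldh3a1 ended without vehicle replicate 1 (adjusted p = 0.0195), 3 (0.0178) or 5 (0.0191) or cisplatin replicate 3 (0.012), 4 (0.0143) or 5 (0.0151). Without cisplatin replicate 1, Akr7a5 (-0.96), Aldh1l2 (-0.93) and Dhrs4 (-0.96) were no longer called, nor were Aldh1l2 (-0.97) without replicate 3 and Dhrs4 without replicate 2, where its estimate lay at the limit (adjusted p = 4.27e-08). Newly called were Aldh6a1 (-1.03) and Hsd17b14 (-1.01) without cisplatin replicate 2, Hsd17b14 without vehicle replicate 1 (-1.06) or 2 (-1.02), and Hsd3b7 (1.04) without vehicle replicate 2.

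For co-treated against cisplatin mice, the call of Akr1b7 ended on leaving out any of 16 of the 22 libraries (adjusted p = 0.0107 to 0.0458), with 0.46 without co-treated replicate 6. Newly called were Aldh1a3 (-2.22), Aldh3a1 (-2.56), Aldh3b2 (-1.33) and Hsd17b14 (1.01) without co-treated replicate 1, Hsd17b14 without co-treated replicate 2 (1.04) or cisplatin replicate 2 (1.05), and Aldh4a1 (1.06) without cisplatin replicate 5. Against vehicle, Akr1c21 was no longer called without vehicle replicate 1 (-0.99) or 4 (-0.99) or co-treated replicate 2 (-0.97), 3 (-0.94) or 5 (-0.98). Newly called there were Akr1b7 (-1.13) and Akr1d1 (-1.05) without co-treated replicate 6, Akr1d1 without vehicle replicate 1 (-1.01) or 2 (-1.03), Aldh3b2 (-1.10) without co-treated replicate 1, Hsd3b7 (1.02) without vehicle replicate 2, and Dhrs9 without vehicle replicate 3 (-2.19) or cisplatin replicate 2 (-1.92) or 5 (-1.92).

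For the difference of KW6002 effects, Hsd11b1 (-0.99) was no longer called without vehicle replicate 2. Newly called were Akr1b8 without vehicle replicate 2 (-1.10) or KW6002 replicate 2 (-1.01), Aldh1a1 (-1.04) without vehicle replicate 5, Aldh1a3 (-3.35) and Aldh3b2 (-1.42) without co-treated replicate 1, Aldh4a1 (1.02) without cisplatin replicate 5, and Dhrs9 without vehicle replicate 1 (-3.02), KW6002 replicate 5 (-2.80) or cisplatin replicate 2 (-2.83) or 5 (-2.84). Depth limits the scarce members: Adh6b, Akr1c20, Aldh3a1, Dhrs9 and Dhrs13os had fewer than 10 counts in at least 8 libraries.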

Other observations

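Other kidney cell markers also differed between groups. Markers of the distal convoluted tubule, with the most counts in Slc12a3, summed to 1884.5 to 2141.7 CPM in vehicle, 83.6 to 195 CPM in cisplatin and 304 to 602 CPM in co-treated mice, with 4 of 4 called lower with cisplatin. Thick ascending limb markers summed to 2067 to 2379 CPM in cisplatin mice, with 5 of 5 called lower. Intercalated cell markers summed to 288 to 338 CPM in vehicle and 161 to 214 CPM in cisplatin mice, with 2 of 5 called lower. Fibroblast markers summed to 188 to 323 CPM in vehicle, 690.1 to 884 CPM in cisplatin and 348 to 566 CPM in co-treated mice, with 4 of 5 called higher with cisplatin. Podocyte markers at 478 to 519 CPM and endothelial markers at 424 to 559 CPM in cisplatin mice had 0 of 5 called each by edgeR, and vehicle endothelial markers summed to 419 to 469 CPM.

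Macrophage markers summed to 122 to 192 CPM in vehicle, 131 to 168.5 CPM in cisplatin and 72.4 to 104 CPM in co-treated mice. T cell markers summed to 3.49 to 6.06 CPM in vehicle and 1.31 to 2.15 CPM in cisplatin mice, B cell markers to 1.62 to 3.27 and 0.826 to 1.31 CPM, and neutrophil markers to 2.59 to 10.98 and 3.37 to 8.13 CPM.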
